A study of Mus musculus with 16 samples.

Results

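The genes described here carry long-chain fatty acids into the heart muscle cell, store and release them as triglyceride, move them into mitochondria and oxidise them there. They are 37 genes, picked by symbol out of the 35682 genes of a table of read counts: 5 of uptake, 6 of triglyceride turnover, 8 of the carnitine shuttle and its control, and 18 of oxidation. Each symbol matched 1 row. The counts come from adult ventricular myocytes of 16 mice. Of these, 8 carried the transgene B3AR-Tg and 8 were their wild-type littermates (WT). The line is named for the beta-3 adrenergic receptor. Every animal of both groups was collected 9 weeks after transverse aortic constriction (TAC), surgery that narrows the aorta and makes the left ventricle pump against a higher pressure. The comparison therefore asks how these genes differed with genotype in pressure-loaded hearts, and it holds no unoperated heart. The myocytes were freed by perfusing the heart on a Langendorff apparatus and kept on plates for an hour before lysis. The promoter that drives the transgene, the species of the receptor and the age of the mice were not given in the sources used here. Each title carries its own animal code and a biological replicate number.

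The adult heart draws most of its ATP from fatty acids. Lipoprotein lipase at the capillary wall frees them from circulating triglyceride, CD36 and the transport protein encoded by Slc27a1 take them up, and acyl-CoA synthetases such as ACSL1 trap them as acyl-CoA. Acyl-CoA is either stored in lipid droplets or handed to carnitine by CPT1, the step that malonyl-CoA inhibits, and then goes through the beta-oxidation spiral in the mitochondrial matrix. In hypertrophied and failing hearts expression of many of these genes is known to fall towards the fetal pattern.

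Libraries held between 5985335 and 14365864 counts and did not divide by genotype. Mouse Adrb3 was at 0 to 4 counts in all 16 libraries, so this gene's counts do not mark the transgene. Adgrb3, an adhesion receptor gene, had 0 to 3 counts in WT and 247 to 723 in B3AR-Tg. It was picked because earlier results on these libraries showed that it separates the genotypes, so it is no independent check of the labels. The load marker Nppa, which encodes atrial natriuretic peptide, was at 78.4 to 1349 CPM in WT (CPM are library counts scaled to a common total with TMM factors, the unit of all levels below) and at 5.76 to 120.3 CPM in B3AR-Tg. The 7 cardiomyocyte markers summed to between 37102 and 48555 CPM in WT and between 44282 and 52284 CPM in B3AR-Tg. Of these 7, 6 had a higher estimate in B3AR-Tg and 1, Ryr2, rose (log2 difference 0.46, adjusted p = 0.0310). The 6 adipocyte markers, which would reveal fat tissue, held 43 counts in all libraries together, and at most 8 in 1 library.

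All 37 genes passed the filter on low counts, with at least 11 counts in every library. Apart from Acot1, none fell below 49 counts in a library. Levels spanned a wide range once divided by transcript length (the median length of each gene's coding transcripts). On this scale Fabp3, the fatty acid binding protein of heart cytosol, came first in both genotypes with 3534 CPM per kilobase in WT. Hadhb with 867, Cd36 with 680, Lpl with 597 and Acadm with 460 CPM per kilobase in WT followed, in the same order in B3AR-Tg. At the low end were Cpt1a with 4.76, Abhd2 with 3.71, Lipe with 2.75 and Acot1 with 1.82 CPM per kilobase in WT. The 37 genes together took 1.55% to 1.85% of all counts in WT and 1.67% to 2.27% in B3AR-Tg. These shares overlapped between genotypes and were not tested.

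**Figure D1:**
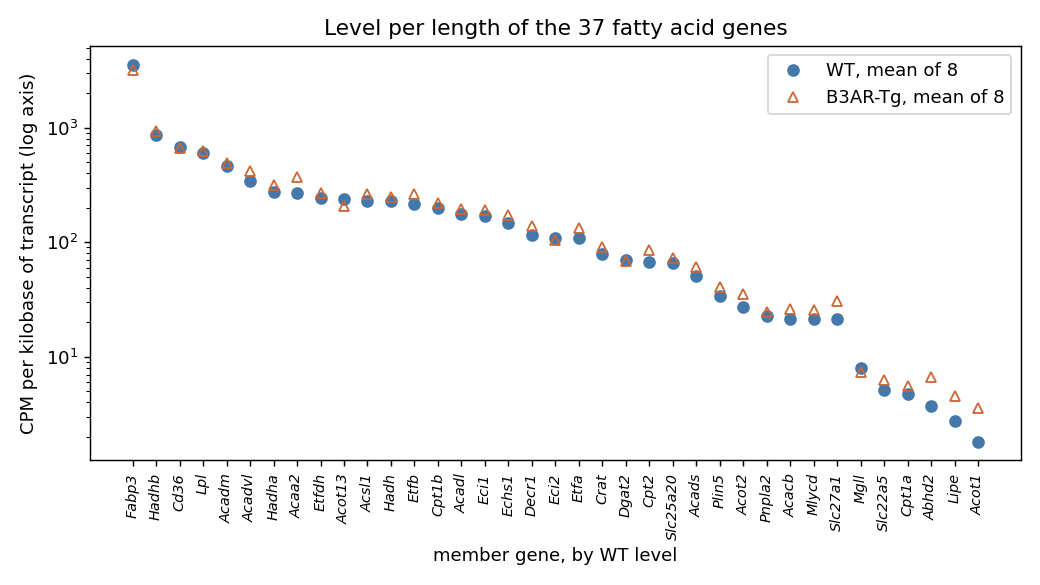
Mean level per kilobase of transcript (log axis) of the 37 genes, ordered by the WT level, for WT (filled circles) and B3AR-Tg (open triangles), 8 animals each. The levels run from 3534 CPM per kilobase for Fabp3 down to 1.82 for Acot1 in WT, and the genotypes lie close to each other for most genes.

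Against this range the differences between genotypes were small. Of the 37 genes, 3 rose in B3AR-Tg at an adjusted p under 0.05 and 0 fell. The 3 were Abhd2 and Lipe, which encode lipases, and the uptake gene Slc27a1. Over all 10945 tested genes, 4.76% passed in either direction, 2.04% as higher and 2.72% as lower. Without adjustment 16 of the 37 had a p under 0.05 and a higher level in B3AR-Tg, and 1, Acot13, a lower level. The background of such genes was 8.54% higher and 10.5% lower. A p that missed the threshold does not show that a gene did not differ.

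The estimates leaned one way, in genes that were chosen with earlier results of these data known. The log2 difference (the fitted log2 fold change, B3AR-Tg minus WT, given below with its standard error, SE) was above 0 for 31 of the 37 genes, against 51.1% of all tested genes. Its median was 0.22 over the 37 and 0.01 over all tested genes, and it was above 0 for 6 of the 7 cardiomyocyte markers too, with a median of 0.14. By step the median was 0.08 for uptake, 0.20 for triglyceride turnover, 0.25 for the carnitine shuttle and 0.23 for oxidation. Only 4 genes differed by 0.5 or more in either direction on this scale, and 33 stayed under it. At least 7 of the 8 B3AR-Tg animals lay above the WT median for 20 of the 37 genes, where 16.4% of all tested genes did so. The groups separated without overlap for 0 of the 37, against 0.448% of all tested genes.

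**Figure D2:**
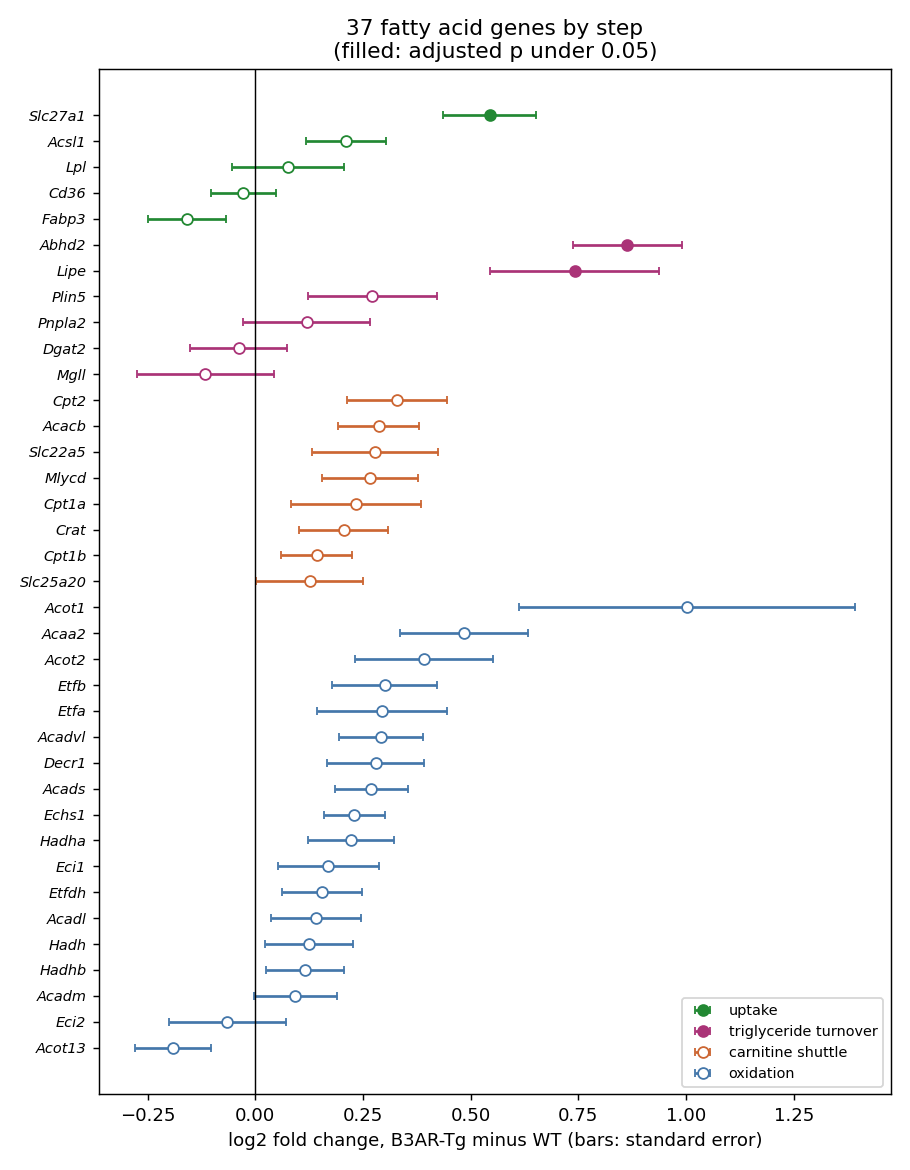
Log2 fold change of each of the 37 genes (B3AR-Tg minus WT, horizontal axis) with its standard error, grouped and coloured by step, n = 8 animals per genotype. Filled points passed at an adjusted p under 0.05: Slc27a1, Abhd2 and Lipe lie at 0.54, 0.86 and 0.74, and 31 of 37 points lie right of 0.

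Which animals are in the comparison, and scaling without TMM factors, changed the number of genes that passed. Leaving out B3AR-Tg replicate 7 raised it from 3 to 7, adding Acadvl, Acaa2, Decr1 and Acot2. Scaling by library size only, without TMM factors, gave 8 and turned the calls over all genes from 223 higher and 298 lower into 347 higher and 147 lower. DESeq2 gave 7.

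Markers of other cells moved with genotype as well. The summed level of the 8 fibroblast markers was 39.9 to 123.2 CPM in WT and 12.01 to 50.2 CPM in B3AR-Tg, and 4 of the 7 that could be tested fell and 0 rose. That of the 9 endothelial markers was 94.0 to 144.3 and 45.9 to 169.3 CPM, and 3 of 9 fell and 0 rose. The 7 mural markers summed to 87.7 to 162.6 CPM in WT and 47.7 to 143.0 CPM in B3AR-Tg. Of these, 6 could be tested and 0 were called by edgeR (1 at an unadjusted p under 0.05). The 9 leukocyte markers summed to 4.27 to 14.8 and 0.795 to 6.54 CPM, with Cd3e at 0 counts in every library. Only 2 of the 9 could be tested, Csf1r and Lyz2, with log2 differences of -0.74 and -0.89. Of these, 0 were called by edgeR and 0 had an unadjusted p under 0.05. In such bulk samples, fewer cells of a type and less RNA per cell cannot be told apart. With the mean log2 level of the fibroblast and endothelial markers as a covariate, 0 of the 37 genes passed, 10 of the 37 estimates changed sign, 23 were above 0 and the median log2 fold change was 0.04. That marker level was itself 2.90 ± 0.272 in WT and 2.02 ± 0.458 in B3AR-Tg (mean ± SD, n = 8), so the covariate moves with genotype, and 3 genes of the whole table passed with it. The part of other cells in the differences below was not tested beyond this.

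At the first step, uptake, 1 of 5 genes changed. Slc27a1 (ENSMUSG00000031808) encodes fatty acid transport protein 1, which couples uptake of fatty acids to their activation. Its level in WT animals was 49.9 CPM at the lowest, 56.8 at the median and 71.4 at the highest. In B3AR-Tg it was 58.8, 91.8 and 101.7 CPM. The groups overlapped, since 6 B3AR-Tg animals lay above every WT animal and the other two within the WT range. Slc27a1 rose from 58.6 ± 7.67 to 85.4 ± 15.4 CPM (mean ± SD, n = 8), a log2 difference of 0.54 ± 0.11 (SE) (edgeR quasi-likelihood test, adjusted p = 0.00735). With the marker covariate its log2 fold change was 0.51 and its adjusted p 0.304.

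The more abundant uptake genes did not pass. Cd36, the main fatty acid transporter of the myocyte membrane, averaged 1842 ± 179.6 CPM in WT animals and 1808 ± 117 CPM in transgenic ones. Its log2 fold change of -0.03 (SE 0.08, adjusted p = 0.890) became 0.06 with scaling by library size only, and 0.01 without WT replicate 6. Lpl, lipoprotein lipase, was at 2455 ± 537 and 2589 ± 439 CPM (log2 difference 0.08 ± 0.13 SE, adjusted p = 0.802). Fabp3 had 2909 ± 391 CPM (WT) and 2605 ± 278 CPM (transgenic) (log2 difference -0.16 ± 0.09 SE, adjusted p = 0.357). Acsl1, the main acyl-CoA synthetase of heart, had 788 ± 115 and 911 ± 95.6 CPM (log2 difference 0.21 ± 0.09 SE, adjusted p = 0.217). The endothelium also expresses Cd36, whose level therefore need not come from myocytes alone.

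Triglyceride turnover held the largest called difference. Abhd2 (ENSMUSG00000039202) encodes a serine hydrolase of the alpha/beta hydrolase family that cleaves monoacylglycerols. WT animals had 16.8 CPM at the lowest, 26.0 at the median and 32.2 at the highest, and B3AR-Tg animals had 30.4, 48.6 and 56.7 CPM. The groups met in 1 B3AR-Tg animal, replicate 3 at 30.4 CPM, which lay below the highest WT animal, and the other 7 lay above all WT animals. Abhd2 rose from 25.5 ± 4.57 to 46.2 ± 8.63 CPM, a log2 difference of 0.86 ± 0.13 (SE) (adjusted p = 0.000891), and ranked 7th by p among all tested genes. With the marker covariate its log2 fold change was 0.79 and its adjusted p 0.194.

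Lipe (ENSMUSG00000003123) encodes hormone-sensitive lipase, which protein kinase A activates and which acts mainly on diacylglycerol. It was scarce, with 49 to 245 counts per library. WT animals had 5.81 CPM at the lowest, 8.43 at the median and 14.1 at the highest, and B3AR-Tg animals 7.32, 14.8 and 20.3 CPM. WT replicate 6 was the highest of its group and B3AR-Tg replicate 7 the lowest of its own, and 5 transgenic animals exceeded every WT animal. Lipe rose by 0.74 on the log2 scale (SE 0.20, adjusted p = 0.0338). It passed under 18 of 27 alternatives, where Slc27a1 and Abhd2 each passed under 26. Its call was lost when B3AR-Tg replicate 2, 5 or 8 or WT replicate 1, 4, 5 or 8 was left out, and with a replicate block (adjusted p = 0.0973), and with the marker covariate its log2 fold change was 0.46 (adjusted p = 0.626).

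The other genes of this step gave no call. Pnpla2 encodes adipose triglyceride lipase, which starts triglyceride breakdown. It had 49.7 ± 8.21 CPM (WT) and 54.1 ± 15.9 CPM (transgenic) (log2 difference 0.12 ± 0.15 SE, adjusted p = 0.712). Plin5, a droplet coat protein that ties droplets to mitochondria, had 67.0 ± 13.8 and 80.9 ± 19.3 CPM (log2 difference 0.27 ± 0.15 SE, adjusted p = 0.341). Estimates for Mgll, monoacylglycerol lipase, and Dgat2, which makes triglyceride, were -0.12 and -0.04 with adjusted p of 0.744 and 0.898. The sign of Mgll turned with the marker covariate and that of Dgat2 with scaling by library size only and without B3AR-Tg replicate 4 or WT replicate 7.

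**Figure D3:**
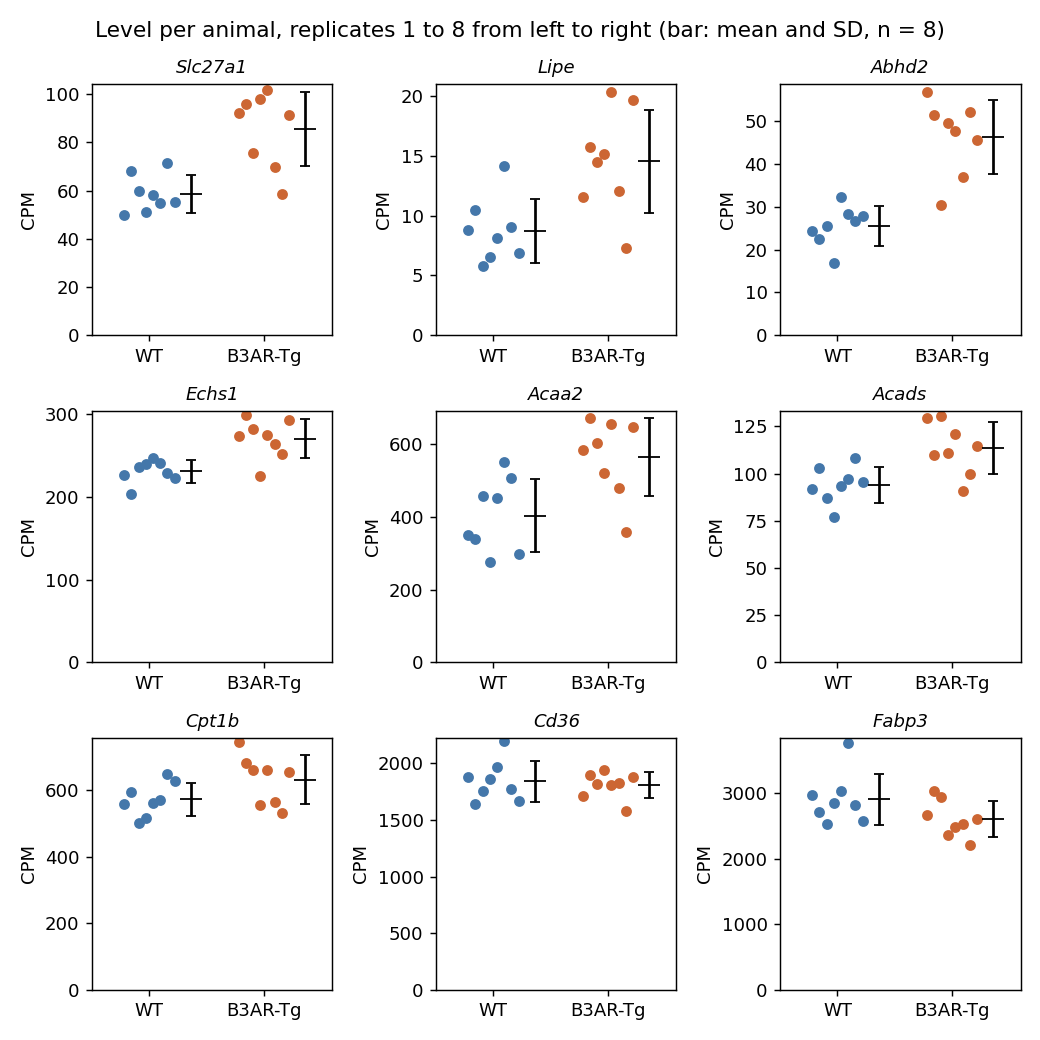
CPM of 9 genes in each animal (points, replicates 1 to 8 from left to right) for WT and B3AR-Tg, with mean and SD (n = 8). The upper row holds the 3 genes that passed, of which Abhd2 overlaps between groups in 1 B3AR-Tg animal only, while Cd36 and Fabp3 in the lowest row lie at similar heights in both groups.

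In the carnitine shuttle all 8 estimates lay above 0, between 0.13 and 0.33 on the log2 scale, and 0 of 8 passed with edgeR, while 1, Acacb, passed with DESeq2. Of the 8, 3 had an unadjusted p under 0.05. Cpt2, the inner-membrane transferase that turns acylcarnitine back into acyl-CoA, had 114.8 ± 24.9 and 144.1 ± 15.7 CPM in WT and transgenic animals (log2 difference 0.33 ± 0.12 SE, adjusted p = 0.109). Acacb encodes acetyl-CoA carboxylase 2, whose product malonyl-CoA inhibits CPT1. It had 185.9 ± 21.2 and 226.7 ± 34.6 CPM (log2 difference 0.29 ± 0.09 SE, adjusted p = 0.0803). Mlycd, the decarboxylase that removes malonyl-CoA, had 45.5 ± 7.77 and 54.7 ± 8.70 CPM (log2 difference 0.27 ± 0.11 SE, adjusted p = 0.188). The estimates for Acacb and Mlycd lay within 1 SE of each other.

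The ratio of Acacb to Mlycd counts in an animal, which needs no library scaling, had a geometric mean of 4.12 in WT (2.98 to 4.75) and 4.15 in B3AR-Tg (2.88 to 5.82). The difference of 0.01 on the log2 scale was within the spread between animals (exact permutation test over the 12870 splits, two-sided p = 0.936, also 0.936 after adjustment over 2 ratios). The same was done for the 2 CPT1 isoforms of heart. Cpt1b is the muscle form and Cpt1a the liver form, more prominent before birth. Counts of Cpt1a were 3.56% of those of Cpt1b in WT (3.00% to 4.56%) and 3.73% in B3AR-Tg (2.20% to 5.16%). The means differed by 0.07 on the log2 scale (exact permutation p = 0.730, adjusted p = 0.936), but the transgenic animals stood apart from each other. On this scale WT animals lay between -5.06 and -4.45. B3AR-Tg replicates 1 to 3 lay between -5.50 and -5.16, below every WT animal, and replicates 4 to 8 between -4.50 and -4.28, of which all but replicate 4 lay above every WT animal. The difference of medians was accordingly larger, 0.40 (adjusted exact permutation p = 0.371), and the SD was 0.21 in WT and 0.50 in B3AR-Tg. In the titles, B3AR-Tg replicates 1 to 3 carry higher animal codes than replicates 4 to 8. Among WT animals the codes rise with the replicate number. WT replicates 1 to 4 lay between -5.06 and -4.45, and WT replicates 5 to 8 between -4.90 and -4.81. What the codes order is not given in the sources used here, and a link with the ratio was not tested.

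Singly, Cpt1b had 573 ± 50.7 and 633 ± 73.8 CPM in WT and transgenic animals (log2 difference 0.14 ± 0.08 SE, adjusted p = 0.362), and Cpt1a 20.5 ± 3.55 and 24.2 ± 6.56 CPM (0.23 ± 0.15 SE, adjusted p = 0.427). Slc25a20, the carrier that exchanges acylcarnitine for carnitine, had the estimate nearest to 0, at 0.13 (SE 0.12, adjusted p = 0.625). Crat, which makes short acylcarnitines, had 301.1 ± 50.7 and 346.9 ± 41.4 CPM (0.20 ± 0.10 SE, adjusted p = 0.280). Slc22a5, the carnitine importer OCTN2, was at 0.28 (SE 0.15, adjusted p = 0.314). The transcript of Slc22a5 is 93.6% identical to that of Slc22a4 over 373 bases and 88.8% identical to that of Slc22a21 over 2115 bases. How reads matching several of these genes were divided is not given in the sources used here.

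In oxidation, 16 of 18 estimates lay above 0 and 0 of 18 passed with edgeR, while Acads, Echs1 and Acaa2 passed with DESeq2. Without adjustment 9 were higher at a p under 0.05 and 1 lower. Of the 5 genes among the 37 with an adjusted p between 0.05 and 0.1, 4 belong to this step: Echs1, Acaa2, Acads and Acadvl. Echs1, the short-chain enoyl-CoA hydratase, had 230.5 ± 13.8 CPM in WT animals, the lowest coefficient of variation there of all 37 genes (5.99%). In B3AR-Tg it had 225.5 CPM at the lowest, 273.6 at the median and 298.9 at the highest, and 7 of 8 animals lay above the highest WT animal at 247.3 CPM (log2 difference 0.23 ± 0.07 SE, adjusted p = 0.0620). Acaa2, a thiolase of the spiral, spanned 277.1 to 551.3 CPM in WT animals and 357.8 to 671.4 CPM in transgenic ones. Its medians were 400.5 and 593.5 CPM (log2 difference 0.48 ± 0.15 SE, adjusted p = 0.0683). WT replicates 6 and 7 were its highest WT animals and B3AR-Tg replicate 7 its lowest B3AR-Tg animal.

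The acyl-CoA dehydrogenases open each turn, and each handles its own chain lengths. Acads (short chains) had 94.1 ± 9.56 and 113.4 ± 13.7 CPM in WT and transgenic animals (log2 difference 0.27 ± 0.09 SE, adjusted p = 0.0711), and Acadvl (very long chains) 711 ± 73.9 and 871 ± 137 CPM (0.29 ± 0.10 SE, adjusted p = 0.0875). Acadm (medium chains) had 942 ± 114 and 1005 ± 149 CPM (0.09 ± 0.10 SE, adjusted p = 0.644). Acadl (long chains) had 336 ± 46.3 and 370 ± 60.6 CPM (0.14 ± 0.10 SE, adjusted p = 0.490). Whether the 4 dehydrogenases differed from each other in their response was not tested.

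Hadha and Hadhb encode the alpha and beta subunits of the mitochondrial trifunctional protein, which carries out the last 3 reactions on long chains. Hadha had 1091 ± 152 and 1273 ± 181 CPM in WT and transgenic animals (log2 difference 0.22 ± 0.10 SE, adjusted p = 0.228), and Hadhb had 1772 ± 200.5 and 1920 ± 232 CPM (0.12 ± 0.09 SE, adjusted p = 0.518). The electron carriers that take over from the dehydrogenases had estimates of 0.29 for Etfa, 0.30 for Etfb and 0.16 for Etfdh, with adjusted p of 0.297, 0.168 and 0.387. Among the auxiliary enzymes for unsaturated chains, the estimates were 0.28 for Decr1, 0.17 for Eci1 and -0.06 for Eci2, with adjusted p of 0.163, 0.457 and 0.843. Hadh, the hydroxyacyl-CoA dehydrogenase for shorter chains, was at 0.13 (adjusted p = 0.542).

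The acyl-CoA thioesterases release free fatty acid from acyl-CoA, and their 3 estimates did not point the same way. Acot1, the cytosolic form, had the largest estimate of all 37 genes and, in WT animals, the highest coefficient of variation (61.3%). WT animals lay at 1.08 to 8.97 CPM (median 4.44) and B3AR-Tg animals at 2.41 to 12.7 CPM (median 8.90), with 11 to 61 and 31 to 114 counts, and its log2 difference was 1.00 ± 0.39 (SE, adjusted p = 0.162). Acot2, the mitochondrial form, had 59.3 ± 12.5 and 77.7 ± 20.2 CPM (0.39 ± 0.16 SE, adjusted p = 0.183). The transcripts of Acot1 and Acot2 are 95.1% identical over 1274 bases, and Acot2 had 10877 counts in all libraries against 949 of Acot1, so the level of Acot1 is uncertain to the extent that reads were shared between them. Acot13 had 171.8 ± 17.8 and 150.5 ± 19.9 CPM in WT and transgenic animals (-0.19 ± 0.09 SE, adjusted p = 0.240).

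Pairs of genes that share a locus or an enzyme were compared across the animals of each genotype, 6 relations in all, on log2 CPM. Hadha and Hadhb varied together (WT r = 0.88, rho = 0.90; B3AR-Tg r = 0.96, rho = 0.90; n = 8 each, exact permutation p adjusted over 6 = 0.00913 and 0.00342 for r, and 0.00913 for both rho). Without the 2 animals farthest from the median of Hadha r was 0.83 and 0.81. Etfa and Etfb did not show such a relation (WT r = 0.59, rho = 0.38; B3AR-Tg r = 0.04, rho = 0.05; adjusted exact permutation p of 0.148 and 0.930 for r, and 0.432 and 0.935 for rho). Acot1 and Acot2 did in WT by r but not by rho (r = 0.75, rho = 0.71, adjusted exact permutation p = 0.0458 and 0.0864; r = 0.78 without 2 animals). In B3AR-Tg they had r = 0.91 and rho = 0.90 (adjusted exact permutation p = 0.00913 for each), but r fell to 0.46 without replicates 6 and 7 and so rests on them. Both genes of a pair share an animal's library and its scaling, and the pairs were chosen after the data were seen. Many of the genes described here were also high or low in the same animals. WT replicates 6 and 7 had 31 and 32 of them above the WT mean, and B3AR-Tg replicate 7 had 11. Other pairs of genes were not compared, so these coefficients have no background. Whether the relation of Hadha and Hadhb is particular to that pair was not tested.

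The upstream sequences of 4 genes are shown for what the genes have in common or how they differed: the shared start region of Hadha and Hadhb, the region of Abhd2, which changed most among the called genes, and those of Acadm and Cpt1a, which hold the half-site AGGTCA that nuclear receptors such as the PPARs bind. Each is the 250 bases before the RefSeq start on build GRCm38.p6, 5′ to 3′ on the gene's strand, with AGGTCA or its reverse complement TGACCT in capitals. Hadha and Hadhb lie head to head with 272 bases between their starts, and 228 of the 250 bases before Hadhb are also before Hadha, on the other strand.
Hadhb (chr5:30155003-30155252, plus strand): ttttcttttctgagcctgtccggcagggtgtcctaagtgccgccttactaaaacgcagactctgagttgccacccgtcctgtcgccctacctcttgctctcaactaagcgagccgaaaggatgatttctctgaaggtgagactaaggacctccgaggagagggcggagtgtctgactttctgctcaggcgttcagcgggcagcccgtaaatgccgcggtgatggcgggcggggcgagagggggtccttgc
Abhd2 (chr7:79273016-79273265, plus strand): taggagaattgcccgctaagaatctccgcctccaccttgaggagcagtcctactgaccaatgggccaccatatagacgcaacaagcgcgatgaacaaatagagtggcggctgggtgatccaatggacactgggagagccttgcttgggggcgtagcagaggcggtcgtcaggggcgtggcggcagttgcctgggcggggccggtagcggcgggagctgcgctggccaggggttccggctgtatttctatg
Acadm (chr3:153944644-153944893, minus strand): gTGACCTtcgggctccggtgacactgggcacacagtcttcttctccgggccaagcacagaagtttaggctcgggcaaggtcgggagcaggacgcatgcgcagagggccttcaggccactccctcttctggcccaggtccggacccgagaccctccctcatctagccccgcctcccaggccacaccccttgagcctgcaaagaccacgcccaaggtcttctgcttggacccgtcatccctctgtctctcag
Cpt1a (chr19:3323051-3323300, plus strand): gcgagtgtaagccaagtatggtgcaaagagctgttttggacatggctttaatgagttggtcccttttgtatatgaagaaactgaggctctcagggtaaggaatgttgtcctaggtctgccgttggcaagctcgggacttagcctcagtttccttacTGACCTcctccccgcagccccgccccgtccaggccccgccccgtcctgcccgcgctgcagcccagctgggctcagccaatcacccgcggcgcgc

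The half-site begins 249 bases before the start in Acadm and 94 before it in Cpt1a, and these letters are not in the windows of Hadhb or Abhd2. RefSeq start regions were found for 30 of the 37 genes, with 36 starts. AGGTCA, searched on both strands, was in 6 of the 36 (16.7%), those of Acadm, Acadvl, Cd36, Cpt1a, Echs1 and Plin5, against 14% of all 32851 start regions of the same length. The longer AAGGTCA, which contains it, was in 1 of 36 (2.78%), that of Acadm, against 4.08% of all. The estrogen-related receptor element TCAAGGTCA (0.387% of all), which contains both, and the direct repeat of AGGTCA with 1 base of any kind between the copies (0.0335% of all) were in 0 of 36. The shares of the half-site are therefore close to those of start regions in general. A match is a string of letters and not a measured binding site.

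Animals of one genotype also differed from each other in these genes. The coefficient of variation of a gene over 8 animals had a median of 16.5% in WT and 16.2% in B3AR-Tg, and was higher in WT for 17 of 37 genes. Among WT animals, replicates 6 and 7 had 31 and 32 of the 37 genes above the WT mean (on log2 CPM), replicates 4 and 8 had 6 and 8, and the other 4 had between 15 and 22. Among B3AR-Tg animals, 7 had between 24 and 33 genes above the WT mean, and replicate 7 had 11. B3AR-Tg replicate 7 was thus the one transgenic animal with most of these genes below the WT mean, although its Abhd2 level, 52.0 CPM, was among the highest.

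**Figure D4:**
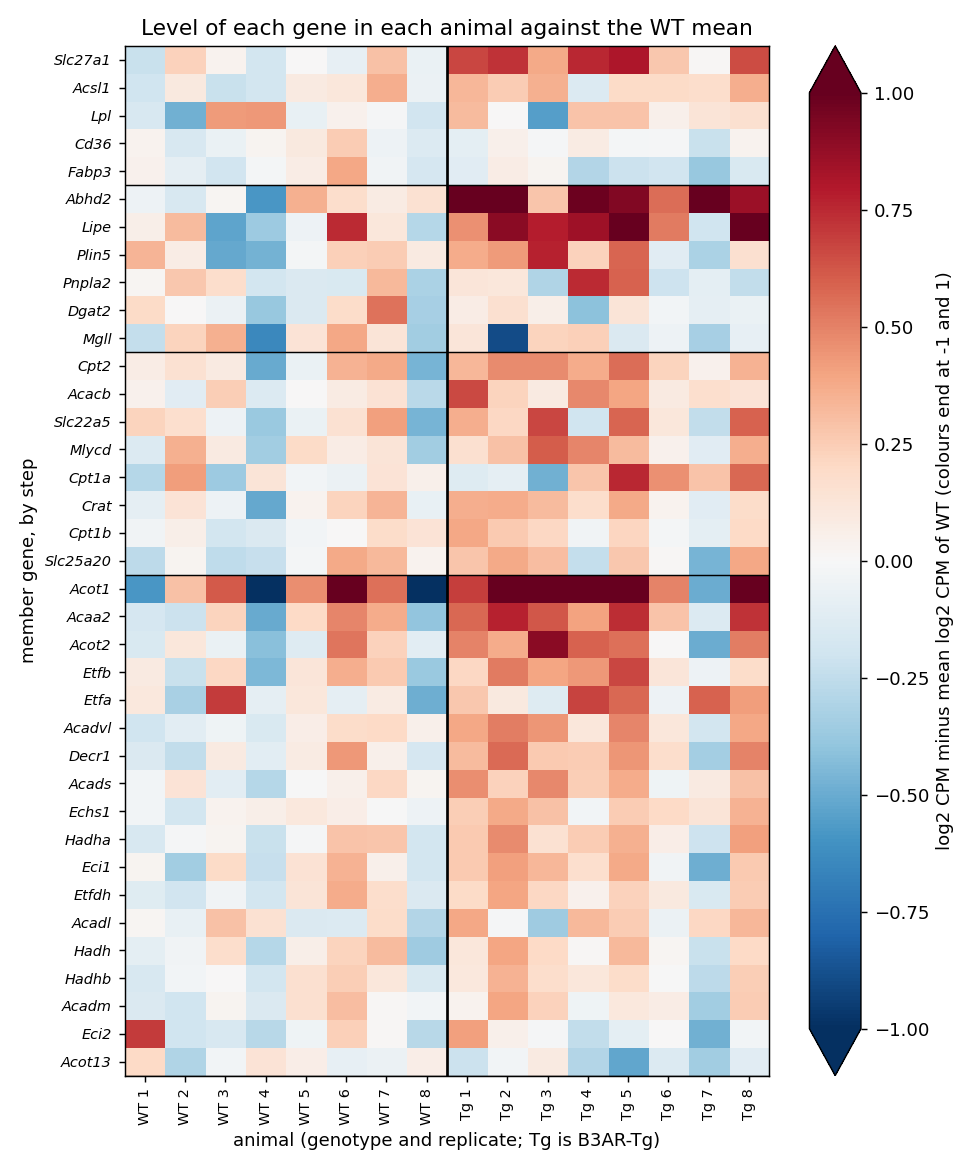
Log2 CPM of each of the 37 genes (rows, by step) in each of the 16 animals (columns, WT left of the line, B3AR-Tg right of it) less the gene's mean in WT. B3AR-Tg replicate 7 and WT replicates 4 and 8 are mostly blue (lower), and WT replicates 6 and 7 and the other B3AR-Tg animals mostly red (higher).

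Set beside Nppa, WT replicates 4 and 8, with few genes above the WT mean, had Nppa at 1076 and 1349 CPM, while replicates 6 and 7, with most genes above it, had 78.4 and 196.3 CPM. WT replicate 2, with 17 genes above the mean, had 1240 CPM. In B3AR-Tg, replicate 7 had the highest Nppa of its group, 120.3 CPM, against 5.76 to 50.3 CPM in the other 7. The summed fibroblast markers of that animal were 47.0 CPM, near the top of its group. Those of replicate 8, with 31 genes above the WT mean, were 50.2 CPM. The part of other cells in the low values of replicate 7 was not tested.

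A relation with Nppa was looked for gene by gene on log2 CPM, 74 relations over 37 genes and both genotypes. In WT the animals fell into separate clusters of Nppa, 5 from 78.4 to 330.0 CPM and 3 from 1076 to 1349 CPM, and neither cluster reached 6 animals, so no coefficient is given for WT. Pooled over the clusters, 35 of the 37 WT relations were negative. After adjustment 1 of the 37 passed, that of Eci1 (exact permutation, adjusted p = 0.0202). An unadjusted p under 0.05 was found for 11, all 11 negative. Whether they hold within the clusters was not tested. In B3AR-Tg, Pearson's r was below 0 for 36 of 37 genes with a median of -0.43, and 0 passed the exact permutation test after adjustment over the 74 relations, while 1 had an unadjusted p under 0.05. The relation rests on replicates 1 and 7, the 2 animals farthest from the median of Nppa, since the median r without them was 0.05. Relations with Nppa were not computed over all tested genes, so the counts for the 37 genes have no background share.

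**Figure D5:**
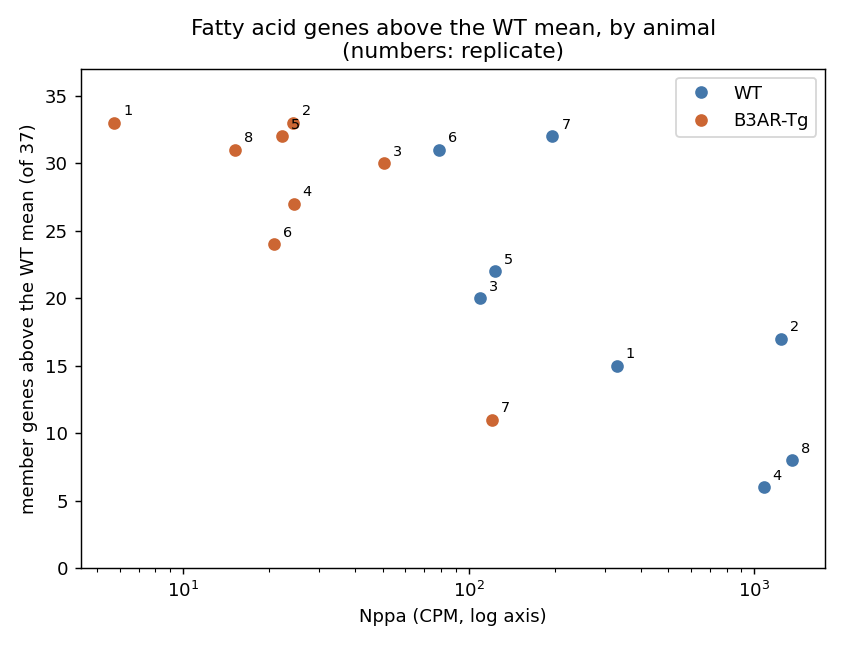
Number of the 37 genes above the WT mean in each animal (vertical axis) against its Nppa level (CPM, log axis), with the replicate number beside each point. B3AR-Tg replicate 7 lies at 11 genes and 120.3 CPM, apart from the other transgenic animals at 24 to 33 genes, and WT replicates 4 and 8 lie lowest at 6 and 8 genes.

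A second list of 100 genes of lipid metabolism and its control was counted in the same way, and 93 of them passed the filter on low counts. Of the 93, 3 rose and 2 fell, beside 2.04% and 2.72% of all tested genes. The estimate was above 0 for 62 of the 93, against 51.1% of all tested genes. Its median was 0.08, where that of the 37 genes was 0.22. In lipid storage and lipolysis, 1 of 23 rose and 1 fell. Fitm2 (ENSMUSG00000048486), a protein of the endoplasmic reticulum needed to form lipid droplets, had 118.4 CPM at the lowest, 144.0 at the median and 178.4 at the highest in WT and 183.6, 215.4 and 241.3 CPM in B3AR-Tg. Its groups did not overlap, as for 0.448% of all tested genes. It rose by 0.52 on the log2 scale (SE 0.09, adjusted p = 0.00298). With the marker covariate the estimate was 0.32 (adjusted p = 0.356).

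Hilpda, a droplet protein that inhibits adipose triglyceride lipase, fell by 1.19 on the log2 scale (SE 0.34, adjusted p = 0.0466), from levels near the limit of counting: 1.46 to 6.68 CPM in WT and 0.650 to 1.67 CPM in B3AR-Tg, with as few as 4 counts. It passed under 13 of 27 alternatives. Without WT replicate 8, its highest animal, the log2 fold change was -0.73 and the adjusted p 0.141. The droplet coat gene Plin2 had 44.3 ± 6.38 and 40.0 ± 5.48 CPM (-0.15 ± 0.10 SE, adjusted p = 0.456).

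In uptake and activation outside the 37 genes, 0 of the 13 tested rose and 1 fell. Gpihbp1, which anchors lipoprotein lipase on capillary endothelium, had 7.01 ± 1.38 CPM (WT) and 4.25 ± 1.82 CPM (transgenic) (-0.73 ± 0.21 SE, adjusted p = 0.0495). It is itself an endothelial gene. All 9 endothelial markers had an estimate below 0, and 3 of them fell, Pecam1, Emcn and Esam. The estimates nearest to 0 were -0.11 for Egfl7 and -0.16 for Kdr (edgeR adjusted p = 0.786 and 0.846). The part of endothelial cells in the fall of Gpihbp1 was not tested. With the marker covariate, built in part from these 9 markers, the estimate of Gpihbp1 was -0.28 (adjusted p = 0.814). Gpihbp1 passed under 8 of 27 alternatives, with 14 of the 16 fits that left out 1 animal losing the call.

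Peroxisomal oxidation (19 tested) and further mitochondrial genes (17 tested) held 0 calls in either direction by edgeR, with 4 genes of each list at an unadjusted p under 0.05, a share near the 19% of all tested genes. With DESeq2 1 gene of each passed, Abcd3 and Acot9, named here after their values were seen. Pdk4 and Ucp3 did not pass. Pdk4, which curbs pyruvate oxidation, had 479 ± 117 and 622 ± 317 CPM in WT and transgenic animals (0.38 ± 0.27 SE, adjusted p = 0.480). Ucp3 had 10.8 ± 3.42 and 17.4 ± 14.2 CPM (0.69 ± 0.42 SE, adjusted p = 0.403).

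Of 21 regulators, 2 rose and 0 fell, and 18 of the 21 estimates were above 0, beside 2.04%, 2.72% and 51.1% of all tested genes. The other parts of the second list leaned less. Estimates above 0 were 7 of 13 in uptake and activation and 13 of 23 in lipid storage and lipolysis. They were 12 of 17 among further mitochondrial genes and 12 of 19 in peroxisomal oxidation. Rxra, the partner receptor of the PPARs, rose from 27.4 ± 4.61 to 37.04 ± 4.39 CPM (0.44 ± 0.10 SE, adjusted p = 0.0196). Ppargc1b, a coactivator of mitochondrial genes, rose from 6.79 ± 1.10 to 9.44 ± 1.40 CPM (0.47 ± 0.13 SE, adjusted p = 0.0377). With the marker covariate their estimates were 0.32 and 0.31, and their adjusted p 0.523 and 0.626. Rxra passed under 26 of 27 alternatives and Ppargc1b under 14. Ppara, the receptor that senses fatty acids in heart, had 23.0 ± 4.27 and 28.9 ± 2.37 CPM (0.33 ± 0.10 SE, adjusted p = 0.0703), and all 8 B3AR-Tg animals lay above the WT median. Ppargc1a, named here after its values were seen, had 86.0 ± 13.4 and 143.5 ± 69.3 CPM (0.74 ± 0.22 SE, adjusted p = 0.0732). Its call depends on how the spread between animals is estimated, since the adjusted p was 0.0384 without the robust prior.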

How the data were processed

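The authors deposited 1 table of whole-number read counts per gene, 1 column per animal, with no normalization. Per the labels' protocols, ribosomal RNA was depleted and stranded libraries were read from both ends. The submitters' processing notes name Salmon and GRCm39. The role and version of Salmon, the annotation and the strand setting are not given in the sources used here. If Salmon made the counts, they were rounded estimates in which reads matching several genes were divided by a model.

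Genotypes were compared in edgeR 4.0.16 by its quasi-likelihood F test (limma 3.58.1, R 4.3.3) on the deposited counts, with filterByExpr (minimum count 10, minimum total 15), TMM scaling, a robust prior and genotype only in the model. P-values are two-sided and Benjamini-Hochberg adjusted over all 10945 tested genes. A fold change's standard error is its size divided by the square root of F. The procedure was tested on simulated data. Correlations and Nppa relations used log2 CPM (prior count 2) computed from the deposited counts, and ratios a pseudocount of 0.5. Permutations were exact. Transcript lengths and copies come from GENCODE M21, where 35394 of 35682 gene IDs were found, with BLAST 2.17.0 (at least 200 bases and 85% identity), and start regions from RefSeq. Both are on GRCm38, so no positions are printed beyond those of the 4 start regions.

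The members and lists were chosen with earlier results of these data known. Named with full values were genes past the threshold, the 4 smallest p-values of each step and a set of central enzymes. So were up to 6 other pathway genes past the threshold per direction, and Ppara, Pdk4, Ucp3 and Plin2. Nppa and Adgrb3 were named for context. The other members are given more briefly. Alternatives were other scalings, filters and tests (DESeq2 1.42.0, limma voom), a replicate block, a marker covariate, a threshold of 0.1 and each animal left out. The fit without a robust prior and the gene pairs were added after the data were seen.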

Additional observations from a re-analysis of the deposited data

Results flagged for a closer look

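For each of the 37 genes, the other named genes and both ratios, the distance of the extreme animal from the next one was divided by the range of its group of 8, on the log2 scale, and compared with Dixon's critical value of 0.526. It was larger in 6 of 96 groups, and about 4.8 would be by chance. Lpl was low in B3AR-Tg replicate 3, at 1642 CPM against 2408 to 2998 in the others (gap 0.636 of the range). Fabp3 was high in WT replicate 6, at 3768 CPM against 2526 to 3039 (gap 0.537). In B3AR-Tg replicate 4, the smallest library, Acsl1 was low at 710.5 CPM against 880.2 to 1003 (gap 0.622), and so was Dgat2 at 116.3 CPM against 145.3 to 172.9 (gap 0.561). Decr1 was low in B3AR-Tg replicate 7, at 266.5 CPM against 381.1 to 497.6 (gap 0.573), and without that animal it passed (log2 difference 0.35, edgeR adjusted p = 0.0326). Hilpda was high in WT replicate 8, at 6.68 CPM against 1.46 to 2.50 (gap 0.659). Of the 6 genes, Lpl, Fabp3, Acsl1 and Dgat2 did not pass with or without the animal.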

How the results depend on the processing

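Counts of called genes depended on the tool, the animals and the marker covariate. Over all 10945 tested genes 521 passed as reported, 881 at an adjusted p of 0.1 and 3 with the fibroblast and endothelial marker covariate. With 1 animal left out 237 to 633 passed. DESeq2 gave 840. It was given the 20301 genes with any count, without the filter on low counts used for edgeR, and applied its own default filter before adjustment. Among the 37 genes 3 passed as reported, 7 with DESeq2, 8 with scaling by library size only, 8 at 0.1, 0 with the covariate and 2 to 7 with 1 animal left out. Among the other genes of the pathway 5 of 93 passed as reported, and 11 with DESeq2, which was given the 99 with any count. By library size only 9 passed, 15 at 0.1, 0 with the covariate and 2 to 6 with 1 animal left out. Replicate numbers are shared between genotypes, but the animals differ, same-numbered animals had correlations of -0.22 to 0.09, and 0 of 8 correlated best with their own number. With the number as a replicate block, 223 genes passed in all, 2 of the 37 and 3 of the others. With the covariate 10 of the 37 estimates changed sign, 9 of them to below 0, among them Plin5 (-0.029), Slc25a20 (-0.19) and Acadm (-0.23), and so did Ucp3 (-0.16). By library size only Cd36 (0.057), Dgat2 and Eci2 turned to above 0, and so did 1 of these 3 without WT replicate 1, 6 or 7 or B3AR-Tg replicate 4 (Cd36 -0.047 to 0.013 with 1 animal left out). Neither ratio passed under any alternative: Cpt1a to Cpt1b was 0.07 (0.40 as a difference of medians, -0.00090 to 0.17 with 1 animal left out) and Acacb to Mlycd 0.01 (-0.029 as a difference of medians, -0.059 to 0.086 with 1 animal left out). Of 74 relations with Nppa 1 passed (Eci1, pooled over the clusters of WT animals), against 0 with Spearman's rho and 0 with Myh7 in its place. The cause of these changes was not tested. Hilpda and Acot1 rest on few counts, as few as 4 and 11 in a library.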
